A study of Mus musculus with 2 samples.

Results

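Aerocyte marker cells were studied here within a Drop-seq survey of the newborn mouse lung. Whole lungs of female C57BL/6J wild-type mice (wt) at postnatal day 1 (PND1) were dissociated and red cells were lysed. There was a single group, without a treatment or a mutant, and its 2 libraries, Batch 1 and Batch 2, each held 1 mouse, so that n = 2 throughout and batch and mouse cannot be told apart. A value is a count of unique molecular identifiers (UMIs), each marking 1 captured RNA molecule, and levels are given as CPM, a gene's UMIs in every 1000000 UMIs summed over a class of cells. Of 9944 deposited cells, 8003 had at most 10% of their UMIs on mitochondrial genes, and no barcode was shared by the libraries (0 of them).

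Endothelial cells were those with at least 3 UMIs summed over *Pecam1*, *Cdh5*, *Egfl7*, *Cldn5* and *Ramp2*, with no UMI of *Ptprc* or *Epcam* and fewer than 3 UMIs of *Col1a2*. Within these 2122 cells, an aerocyte marker cell had at least 2 UMIs summed over 4 genes, *Car4*, *Apln*, *Ednrb* and *Fibin*. This gave 929 aerocyte marker cells, 146 in Batch 1 and 783 in Batch 2, and 1193 other endothelial cells (458 and 735). Because the 4 genes chose the cells, their levels are given as a description and were not tested. The name describes the rule, since the cells chosen by *Ednrb* alone differed from those with *Car4*.

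Aerocytes are the large, net-shaped capillary endothelial cells of the alveolus that lie against alveolar type 1 (AT1) cells and serve gas exchange. They share the alveolar capillary with general capillary cells, which are smaller and act as progenitors for both kinds of cell. *Car4* encodes a membrane-bound carbonic anhydrase, *Ednrb* an endothelin receptor, and *Apln* the ligand apelin, whose receptor *Aplnr* marks general capillary cells. *Fibin* encodes a secreted protein, and both *Fibin* and *Ednrb* are also active in mesenchyme.

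The sequences of the promoters of the 2 genes that supplied most marker UMIs, and of *Prx*, an aerocyte gene outside the rule, are shown with their matches to a short KLF core, since *Klf4* was among the transcription factors that rose. Each runs from 250 bases before to 50 bases after the annotated start (RefSeq, GRCm38.p6). Capitals mark GGGTG or CACCC, the KLF core on either strand.
*Car4* (chr11:84957504-84957803, plus strand): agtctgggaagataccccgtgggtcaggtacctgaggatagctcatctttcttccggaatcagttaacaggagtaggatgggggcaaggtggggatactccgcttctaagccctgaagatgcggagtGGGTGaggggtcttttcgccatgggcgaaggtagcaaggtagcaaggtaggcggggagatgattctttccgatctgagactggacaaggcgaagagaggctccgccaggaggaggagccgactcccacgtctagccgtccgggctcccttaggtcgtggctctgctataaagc
*Ednrb* (chr14:103843652-103843951, minus strand): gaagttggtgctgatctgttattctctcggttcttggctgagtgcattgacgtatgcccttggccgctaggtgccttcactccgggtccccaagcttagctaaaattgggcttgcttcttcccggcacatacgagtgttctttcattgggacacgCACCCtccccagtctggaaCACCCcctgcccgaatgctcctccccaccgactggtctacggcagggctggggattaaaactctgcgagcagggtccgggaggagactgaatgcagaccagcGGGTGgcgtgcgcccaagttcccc
*Prx* (chr7:27499074-27499373, plus strand): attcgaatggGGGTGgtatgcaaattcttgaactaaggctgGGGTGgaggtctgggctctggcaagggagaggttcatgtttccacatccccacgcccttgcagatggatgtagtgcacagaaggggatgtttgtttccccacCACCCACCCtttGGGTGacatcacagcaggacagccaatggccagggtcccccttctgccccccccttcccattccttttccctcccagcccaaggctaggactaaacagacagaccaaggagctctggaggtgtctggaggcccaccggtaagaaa
The *Car4* promoter held 1 match, that of *Ednrb* 3 and that of *Prx* 5. The core was present in 57.5% of 32851 promoters of this length, so that a match is common. None of the 3 sequences (0 matches each) held GGTGTG or CACACC, a T-box core found in 19.0% of all promoters. The promoters of *Apln*, *Emp2* and *Kitl* and the first of 4 annotated for *Pmp22* held 0 KLF cores, that of *Nrp1* held 2 and that of *Fibin* 1. The other *Pmp22* promoters held 2, 2 and 3. A T-box core was found once in the *Fibin* promoter and once in the second *Pmp22* promoter. The letters CACACCC contain both cores.

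*Ednrb* supplied most of the UMIs by which the cells were chosen. Its level was 1112 CPM in the aerocyte marker cells of Batch 1 and 1567 CPM in those of Batch 2, against 105 and 172 CPM in the other endothelial cells. *Car4* was at 485 and 319 CPM in the chosen cells and at 22.2 and 12.1 CPM in the others. Both genes were thus high in the chosen cells of each mouse, which follows from a choice on summed UMIs. The rule requires neither gene by itself. *Apln* was lower, at 99.0 CPM in Batch 1 and 9.52 CPM in Batch 2, and *Fibin* was at 17.3 and 17.4 CPM. *Ednrb* made up 64.9% of the marker UMIs in Batch 1 and 81.9% in Batch 2, and *Car4* 28.3% and 16.7%.

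**Figure D1:**
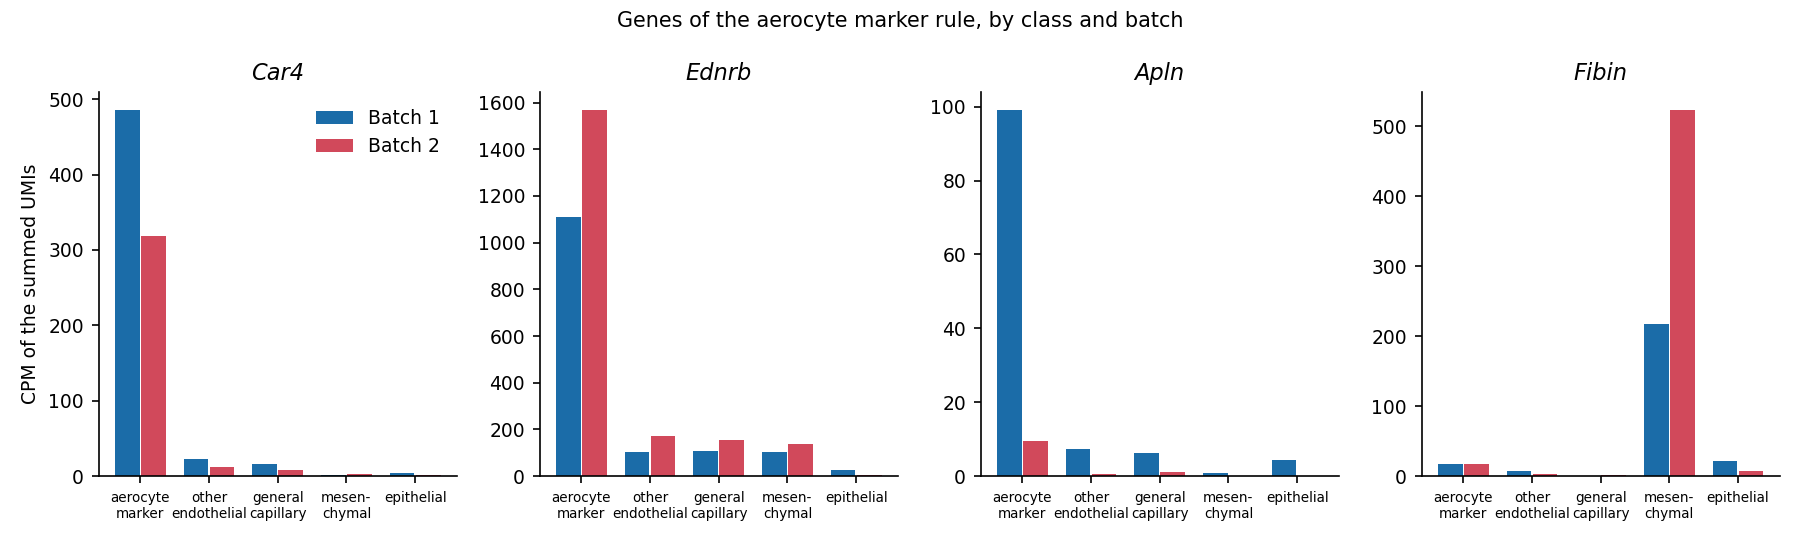
Level of the 4 genes of the rule in CPM of the summed UMIs (y axis) in 5 classes of cells (x axis), 1 bar per batch. *Ednrb* and *Car4* stood highest in the aerocyte marker cells of both mice, and *Fibin* in mesenchymal cells, at 217 and 523 CPM.

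At this depth most of the cells were called by few molecules. The median was 3 marker UMIs per cell in Batch 1 and 5 in Batch 2, and 49 of the 146 cells (33.6%) and 158 of the 783 cells (20.2%) held exactly 2, the fewest the rule admits. Just outside it, 115 and 279 other endothelial cells held 1 marker UMI. *Ednrb* was detected in 91.1% and 98.9% of the aerocyte marker cells, *Car4* in 54.1% and 38.8%, *Apln* in 15.8% and 2.81%, and *Fibin* in 4.11% and 4.60%. After thinning of each cell to 1000 UMIs the shares for *Car4* were 31.4% and 23.7%. Mesenchymal cells were those with at least 3 UMIs of *Col1a2* and none of *Ptprc* or *Epcam*. Epithelial cells held *Epcam* without *Ptprc*, and immune cells *Ptprc* without *Epcam*. All of these had no UMI of the 5 endothelial genes, so that low shares of endothelial genes there may in part follow from the choice. In mesenchymal cells, which should lack *Car4*, it was detected in 0.309% and 0.498% of cells at median depths of 1443.5 and 1850 UMIs. Epithelial cells had it in 1.25% and 0.762% of cells, and immune cells in 0 of 56 cells of Batch 1, which allows a share of up to 6.42% (Wilson 95% interval), and in 7 of 201 cells of Batch 2 (3.48%). *Ednrb* was found in 9.26% and 16.5% of mesenchymal cells, and *Fibin* in 25.3% and 47.1%. Cells with only 1 of the 4 genes numbered 66 of 146 (45.2%) and 459 of 783 (58.6%).

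Aerocyte marker cells made up 24.2% of the endothelial cells in Batch 1 (Wilson 95% interval 20.9 to 27.7%) and 51.6% in Batch 2 (49.1 to 54.1%), a mean of 37.9% ± 19.4 (SD, n = 2). The intervals cover counting error only. With 1 mouse per batch this difference was not tested, and depth moved with it. The chosen cells had a median of 1954.5 and 2513 UMIs, and the other endothelial cells 1273.5 and 1564. In Batch 1 the share was 15.5% among cells with fewer than 1000 UMIs and 53.3% among those with 5000 or more, and in Batch 2 it was 36.9% and 85.9%. After thinning to 1000 UMIs before the rule was applied, the shares were 14.2% and 31.1%. With *Ednrb* left out of the rule they were 9.77% and 14.3%, with 3 rather than 2 marker UMIs 16.1% and 41.2%, and with at least 2 of the 4 genes detected 13.2% and 21.3%.

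**Figure D2:**
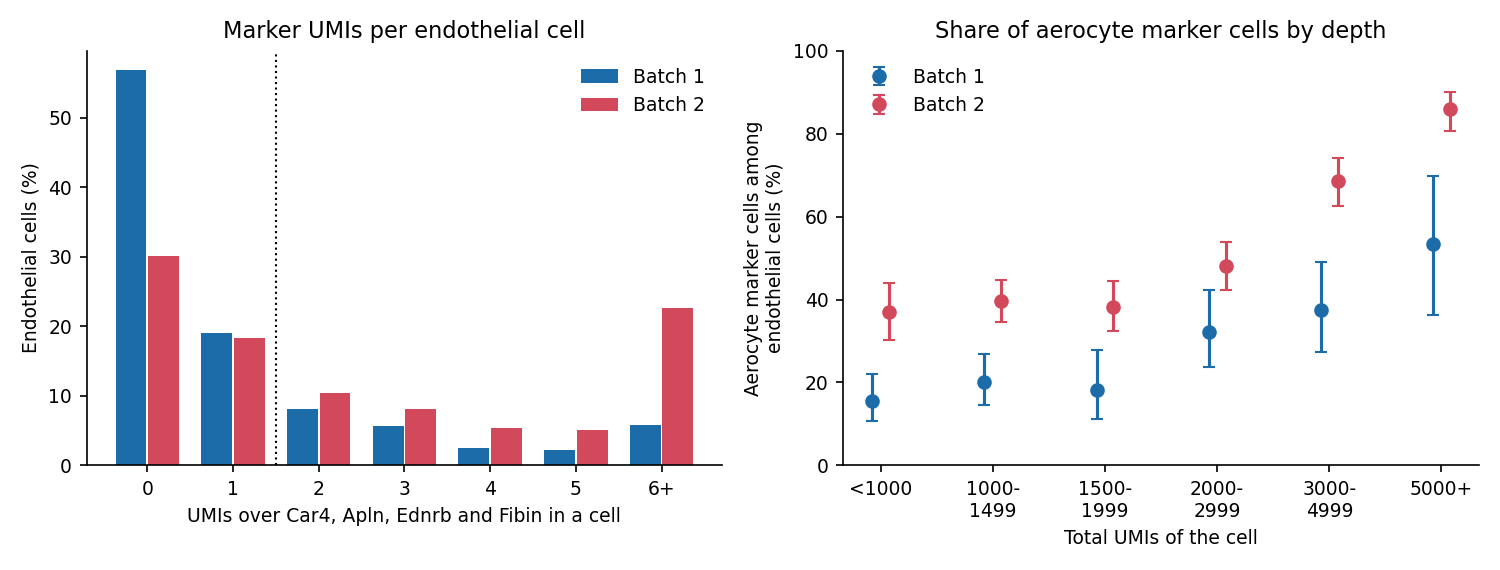
Left, percent of endothelial cells by their UMIs over *Car4*, *Apln*, *Ednrb* and *Fibin*, with the limit of the rule as a dotted line, and right, percent of aerocyte marker cells by total UMIs of the cell (bars, Wilson 95% interval), for each batch. The share was 15.5% in the shallowest and 53.3% in the deepest cells of Batch 1 and 36.9% and 85.9% in those of Batch 2.

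Genes outside the rule were compared between aerocyte marker cells and other endothelial cells on UMIs summed per class and mouse, with the mouse as a block, by edgeR's quasi-likelihood test. Here 70 genes rose in the aerocyte marker cells and 49 fell, of 8996 tested. Of 11 tested genes of a list of 12 further aerocyte genes, 6 rose and none fell (0 of 11). The background was 0.778% of all tested genes higher and 0.545% lower (1.32% in either direction). All 11 estimates were positive, with a median log2 difference of 1.11, against 0.00 over all tested genes. The list was chosen with earlier results of these data known. The 6 genes were *Tbx2*, *Emp2*, *Pmp22*, *Prx*, *Kitl* and *Nrp1*.

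*Emp2* (chr16:10281749-10313968, minus strand, GRCm38) encodes a membrane protein of epithelial and endothelial cells. It was at 683 CPM in the aerocyte marker cells of Batch 1 and 154 CPM in those of Batch 2, against 180.2 and 51.3 CPM in the other endothelial cells. The classes were separated within each mouse, while the mice differed in level. The log2 difference was 1.75 ± 0.13 (SE, adjusted p = 9.04e-06, edgeR's quasi-likelihood test with Benjamini-Hochberg adjustment). *Emp2* is not particular to endothelium and stood at 1065 and 1222 CPM in epithelial cells. *Pmp22* (chr11:63128982-63159547, plus strand), a related membrane protein gene, was at 555 and 527 CPM against 138 and 205 CPM (log2 difference 1.57 ± 0.12, adjusted p = 1.48e-05).

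*Prx* (chr7:27499324-27520214, plus strand) encodes periaxin, a scaffold protein. Its level was 327 and 346 CPM in the aerocyte marker cells and 144 and 162 CPM in the others (log2 difference 1.11 ± 0.11, adjusted p = 8.01e-05). It was detected in 52.7% and 51.7% of aerocyte marker cells, 17.7% and 23.0% of other endothelial cells, and 1.08% and 0.995% of mesenchymal cells. After thinning to 1000 UMIs the endothelial shares were 28.9% and 28.4% against 12.4% and 14.9%. The difference was thus smaller at equal depth but kept its direction in both mice. *Kitl* (chr10:100015630-100100416, plus strand), which encodes the ligand of the receptor made by *Kit*, was at 480.4 and 381 CPM against 209 and 206 CPM (log2 difference 0.99 ± 0.11, adjusted p = 1.49e-04).

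*Tbx2* (chr11:85832551-85841948, plus strand), a T-box transcription factor gene, had the largest estimate of the 6, at 139 and 35.1 CPM against 16.0 and 11.5 CPM (log2 difference 2.31 ± 0.34, adjusted p = 0.00202). It was also at 262 and 135 CPM in mesenchymal cells. *Nrp1*, a co-receptor for VEGF and semaphorins, was at 933 and 516 CPM against 507 and 392 CPM (log2 difference 0.58 ± 0.10, adjusted p = 0.00643). *Kdr*, the main VEGF receptor gene, did not pass the test, at 448 and 256 CPM against 231 and 207 CPM (log2 difference 0.55 ± 0.13, adjusted p = 0.0611). The estimates of *Chst1* (1.85), *Sirpa* (1.62), *Sept4* (0.49) and *Nckap5* (0.08) did not pass either, and *Rprml* was too low to be tested. Among alternative settings *Kdr* passed in 11 of 16, *Chst1* in 8 of 12 and *Sirpa* in 1 of 10, with positive estimates throughout. *Sept4* and *Nckap5* passed in 0 of 16.

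**Figure D3:**
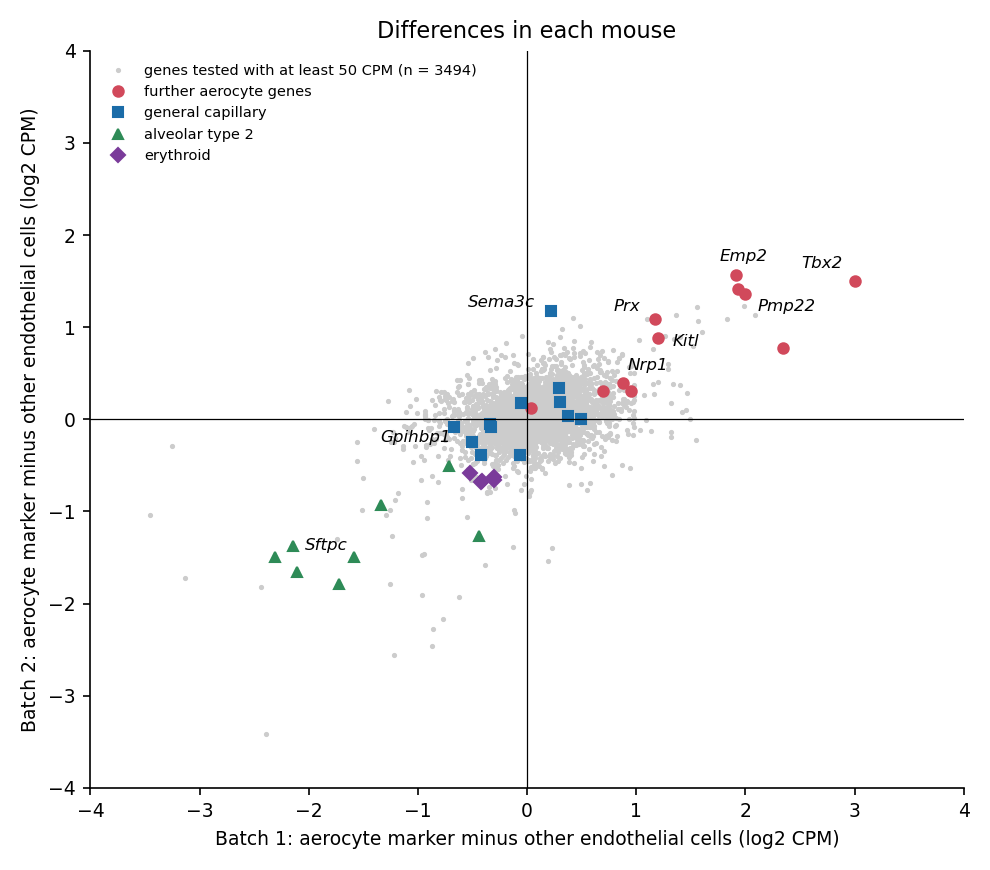
Log2 CPM difference between aerocyte marker cells and other endothelial cells in Batch 1 (x axis) and Batch 2 (y axis), with 1 grey point per tested gene of at least 50 CPM in the higher class (3494 genes, 1 of them beyond the axes) and 4 gene lists in colour. *Emp2*, *Pmp22*, *Prx*, *Kitl*, *Nrp1* and *Tbx2* lay above 0 in both mice, and *Sftpc* and the erythroid genes below 0.

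General capillary genes showed no common direction. Of 12 tested, 1 rose and 1 fell, against 0.778% and 0.545% of all genes tested. Of the estimates 6 were positive, and the median log2 difference was -0.06. *Gpihbp1*, which anchors lipoprotein lipase to the capillary wall, was at 458 and 439.6 CPM in the aerocyte marker cells and 616 and 575 CPM in the others and fell by 0.42 ± 0.08 on the log2 scale (adjusted p = 0.0198). *Sema3c*, a secreted semaphorin gene, was at 248 and 241 CPM against 212 and 106 CPM and rose (0.78 ± 0.17, adjusted p = 0.0425). *Cxcl12*, a chemokine gene, was at 386 and 312 CPM against 405 and 408 CPM (-0.29, adjusted p = 0.273). The 2 marker sets were not exclusive, since 51.4% and 61.9% of the aerocyte marker cells also held at least 2 UMIs over *Gpihbp1*, *Plvap*, *Aplnr* and *Kit*, against 56.1% and 54.1% of the other endothelial cells.

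Among markers of larger and lymphatic vessels, the arterial genes *Bmx* (log2 difference -1.64, adjusted p = 0.0214) and *Dkk2* (-1.46, adjusted p = 0.0350) fell, and no arterial gene rose (0 of 10 tested). *Gja5*, an arterial connexin gene, did not pass (-1.24, adjusted p = 0.133). Over all genes tested 0.778% rose and 0.545% fell. None of the 4 venous genes tested passed in either direction (0 higher, 0 lower), with *Vwf*, the von Willebrand factor gene, at 86.7 and 68.3 CPM against 91.3 and 70.8 CPM (-0.08), *Nr2f2*, a venous transcription factor gene, at 0.27, and *Prss23* at -0.28. Of 8 lymphatic genes, *Mmrn1* (-2.26, adjusted p = 0.00110) and *Ccl21a* (-1.69, adjusted p = 0.00121), a chemokine of lymphatic vessels, fell, and *Reln* did not pass (-2.15, adjusted p = 0.0506). Reads of *Ccl21a* may be shared with near-identical copies.

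Of 22 transcription factor genes tested, 4 rose and 0 fell, against 0.778% and 0.545% of all genes tested. *Klf4*, a factor induced by flow in endothelium, was at 966 and 1521 CPM against 559 and 901 CPM (log2 difference 0.75 ± 0.07, adjusted p = 5.75e-05). The others were *Tbx2*, *Tbx3* (0.77, adjusted p = 0.00353) and *Foxf1*, a factor needed for lung capillaries (0.59, adjusted p = 0.0121). Of 10 genes of VEGF and angiopoietin signalling only *Nrp1* passed, and *Nrp2*, a partner in lymphatic vessels, was at -1.07 (adjusted p = 0.0506).

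Of 10 vasoactive genes, *Thbd*, the thrombomodulin gene (log2 difference 0.42, adjusted p = 0.0238), and *Calcrl*, a receptor for adrenomedullin (0.43, adjusted p = 0.0422), rose, and *Ptgs1* did not pass (0.47). *Col4a2*, a basement membrane collagen gene, rose (0.45, adjusted p = 0.0195), the only one of 14 such genes to pass, with *Lamc1* at 0.59 and *Col4a1* at 0.25. Of 13 junction and caveola genes *Icam2*, a cell adhesion molecule gene, rose (0.53, adjusted p = 0.00513), and *Cav2* (0.26) and *Ocln* (0.55) did not pass. Of 7 lipid handling genes, *Gpihbp1* and *Fabp5*, a fatty acid binding protein gene (-1.32, adjusted p = 0.0110), fell, while *Fabp4* was at -0.49 (adjusted p = 0.0611). Over all genes tested 0.778% rose and 0.545% fell, and a single call describes its gene rather than its list.

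None of the genes tested passed in either direction in the lists of tip cell genes (0 of 6), apelin and endothelin partners (0 of 3), Notch (0 of 9), BMP and TGF-β (0 of 11), the cell cycle (0 of 9), immediate early genes (0 of 8) and the unfolded protein response (0 of 11). Only 1.32% of all genes tested passed, so that 0 calls in lists this short is near that share. Over the whole comparison 897 genes had an unadjusted p under 0.05, and DESeq2 called 29 genes in all (13 higher, 16 lower). *Edn1*, which encodes the ligand of the receptor *Ednrb*, was at 47.0 and 291 CPM in the aerocyte marker cells and 111 and 345 CPM in the others (log2 difference -0.41, adjusted p = 0.349). *Aplnr*, the receptor of apelin, was at 0.14 and *Ece1*, which processes endothelin, at 0.04. The cell cycle genes with the smallest p were *Ccnd1* (0.17), *Top2a* (0.21) and *Tyms* (0.34). The corresponding genes were *Angpt2* (-1.31), *Esm1* (-0.93) and *Plaur* (0.35) for tip cells, *Hes1* (0.36), *Hey1* (-0.47) and *Nrarp* (-0.59) for Notch, and *Tmem100* (0.40), *Id1* (0.24) and *Id2* (-0.31) for BMP. Among alternative settings *Tmem100* passed in 11 of 16 and *Hes1* in 6 of 16. Those of the immediate early genes were *Fos* (0.42), *Jun* (0.26) and *Junb* (0.39), and those of the unfolded protein response *Xbp1* (-0.22), *Hspa5* (-0.13) and *Hsp90b1* (0.10). All 8 immediate early estimates were positive, with a median of 0.36 against 0.00 over all genes tested. *Jun* passed in 7 of 16 alternative settings.

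Beyond the lists, the named genes with the largest rises among those of at least 50 CPM, after *Tbx2*, *Emp2* and *Pmp22*, were *Enho* (log2 difference 1.44), *Tppp3* (1.37), *St6galnac5* (1.22), *Hapln1* (1.20) and *S100a9* (1.18). *S100a9*, a granulocyte gene, turned to -1.82 when only aerocyte marker cells with *Car4* were used. *Igfbp7*, a secreted growth factor binding protein gene, was at 921 and 533 CPM against 383 and 285 CPM (1.04 ± 0.09, adjusted p = 4.25e-05). *Hspb1*, a small heat shock protein gene, was at 203 and 489 CPM against 93.8 and 229 CPM (1.08, adjusted p = 8.55e-05), and *Cdkn1a*, which encodes the cell cycle inhibitor p21, at 215 and 1384 CPM against 96.3 and 816 CPM (0.83, adjusted p = 2.13e-04). All 3 were higher in the aerocyte marker cells of each mouse. The largest falls among named genes of at least 50 CPM were *Lyz1* (-3.17), *Cxcl15* (-2.13), *Bex4* (-1.70), *Mmrn1* and *Ccl21a*. Genes of the marker lists of other cell types, such as *Sftpc*, were left out of this ranking. Whether *Lyz1* and *Cxcl15* came from other cell types was not tested.

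Markers of other cell types moved with the comparison, and their part in the results was not tested. Over all genes tested 0.778% rose and 0.545% fell. The summed level of 8 alveolar type 2 genes was 1312 and 959 CPM in the aerocyte marker cells and 5394 and 2538 CPM in the other endothelial cells, and 6 of the 8 fell. *Sftpc*, a surfactant protein gene, was at 995 and 737 CPM against 4408 and 1907 CPM. The summed level of 8 AT1 genes was 1830 and 1162 CPM against 1008 and 761 CPM, with 2 of 8 higher, *Hopx* (log2 difference 1.25) and *Clic5* (0.68). Of 5 erythroid genes 4 fell, with summed levels of 61814 and 13426 CPM against 79407 and 21212 CPM. Immune genes summed to 42.1 and 32.5 CPM against 316 and 83.0 CPM with 1 of 2 tested lower. *Cd68* was at 0 in the aerocyte marker cells of Batch 1, and *Cd79a* and *Cd3g* in those of Batch 2. *Cd3g* was also at 0 in the other endothelial cells of both batches. Fibroblast genes summed to 220 and 89.3 CPM against 348 and 116 CPM, with *Dcn* at 0 in the aerocyte marker cells of Batch 1. Mural genes summed to 109 and 233 CPM against 116 and 318 CPM. The pericyte genes *Agtr1a* and *Vsnl1* were at 0 in the aerocyte marker cells of both batches and also in the other endothelial cells of Batch 1.

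Depth moved with the choice of cells, and its part in the results was not tested on its own. When both classes were kept to cells of 1000 to 3000 UMIs, a range chosen after seeing the data, *Emp2* (log2 difference 1.86), *Pmp22* (1.76), *Tbx2* (2.57) and *Prx* (1.01) still passed, while 33 genes rose and 8 fell in all. Each gene has 1 residual degree of freedom in this test, so that its p-value rests largely on the spread of the other genes, and without the mouse as a block 0 genes passed, with 116 at an unadjusted p under 0.05.

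The level of aerocyte genes also followed the number of marker UMIs in a cell. In Batch 1 *Emp2* was at 166 CPM in endothelial cells with 0 marker UMIs, 215 CPM with 1, 508 CPM with 2 to 3, 769 CPM with 4 to 9 and 907 CPM with 10 or more. In Batch 2 the same classes were at 50.8, 52.0, 84.4, 116 and 224 CPM. *Pmp22* was ordered in the same way, from 120.5 to 723 CPM in Batch 1 and from 199 to 688 CPM in Batch 2. *Gpihbp1* showed no steady order. The cells with 10 or more marker UMIs had a median depth of 4504.5 UMIs in Batch 1 (16 cells) and 4726 UMIs in Batch 2 (191 cells), against 1199 and 1534 UMIs in cells with 0, and the part of depth in this order was not tested.

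**Figure D4:**
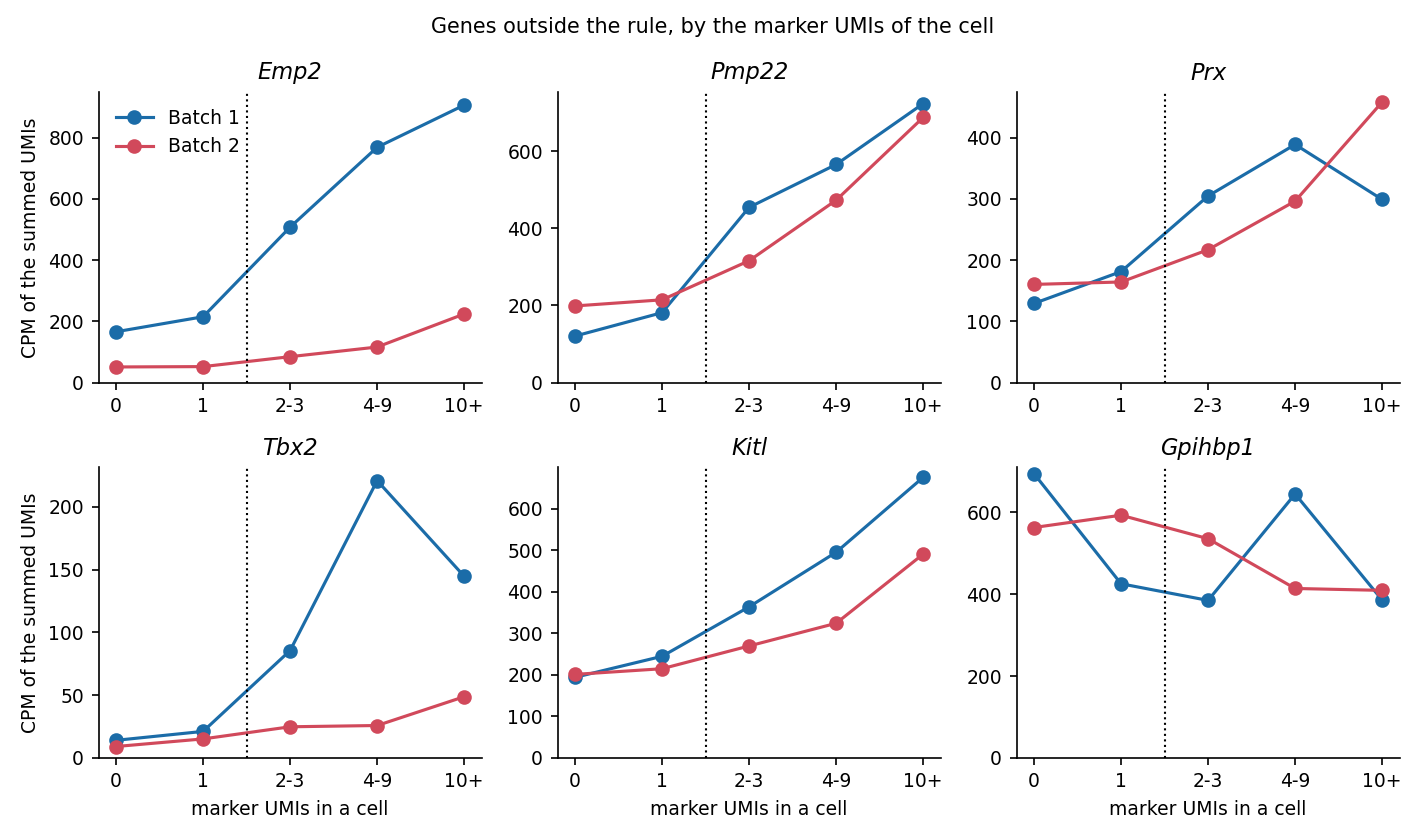
Level in CPM of the summed UMIs (y axis) of 6 genes outside the rule in endothelial cells grouped by their marker UMIs (x axis), 1 line per batch, with the limit of the rule as a dotted line. *Emp2* climbed from 166 to 907 CPM in Batch 1 and from 50.8 to 224 CPM in Batch 2, while *Gpihbp1* had no steady order.

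Aerocyte marker cells were also compared with general capillary marker cells, a name that again describes a rule. These were 655 of the other endothelial cells (257 and 398) with at least 2 UMIs over *Gpihbp1*, *Plvap*, *Aplnr* and *Kit*, so that the comparison shares its aerocyte marker cells and part of its reference with the first. They had median depths of 1436 and 1906 UMIs. Of the aerocyte marker cells 51.4% and 61.9% met the same limit on these genes, so that the rule does not set a separate kind of cell apart. Here 54 genes rose in the aerocyte marker cells and 43 fell of 7586 tested, and 6 of 9 further aerocyte genes rose and 0 fell, against a background of 0.712% higher and 0.567% lower (1.28% in either direction). Their median log2 difference was 0.89. The split of calls moved with the scaling, from 55.7% higher to 72.3% higher with library size alone and 66.7% by DESeq2.

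In this comparison *Emp2* was at 129 and 44.2 CPM in the general capillary marker cells (log2 difference 2.10 ± 0.17, adjusted p = 4.06e-08, edgeR's quasi-likelihood test with Benjamini-Hochberg adjustment). *Tbx2* stood at 12.2 and 8.62 CPM there (2.73, adjusted p = 7.83e-05), *Pmp22* at 147 and 214 CPM (1.48, adjusted p = 2.06e-07) and *Prx* at 155 and 158 CPM (1.07, adjusted p = 5.37e-05). *Kitl* (0.89) and *Nrp1* (0.58) passed as well, while *Kdr* did not (0.36, adjusted p = 0.330). Of the 8 general capillary genes that had not been used for the choice, *Sema3c* rose (0.77, adjusted p = 0.0178), and *Ptprb* (-0.25) and *Glp1r* (-0.67) did not pass. *Lyve1*, a hyaluronan receptor gene, was at 2238 and 4906 CPM in the aerocyte marker cells and 3078 and 6064 CPM in the general capillary marker cells and fell by 0.41 ± 0.06 on the log2 scale (adjusted p = 1.22e-04). *Lpl*, the lipoprotein lipase gene, fell by 0.47 (adjusted p = 0.0178). *Enho* (1.67), *Tppp3* (1.60), *St6galnac5* (1.35) and *S100a9* (1.69, but -1.29 for cells with *Car4*) were among the largest rises. Outside the marker lists of other cell types, *Lyz1* (-2.23), *Cxcl15* (-1.67), *S100g* (-1.62) and *Ptpn18* (-1.37) were among the largest falls.

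The aerocyte marker cells were not uniform. *Car4* was detected in 79 of 146 cells in Batch 1 and 304 of 783 cells in Batch 2, while 56 (38.4%) and 450 (57.5%) held *Ednrb* alone, with no UMI of *Car4*, *Apln* or *Fibin*. The remaining 11 and 29 cells fell in neither set. Most cells with *Car4*, 68 in Batch 1 and 296 in Batch 2, also held *Ednrb*. These sets were compared after the values of *Car4* and *Ednrb* had been seen, so that the comparison is exploratory. A cell without a *Car4* UMI is not shown to lack *Car4* at this depth, with medians of 2051 and 2620.5 UMIs in cells with *Car4* and 1738.5 and 2375 UMIs in cells with *Ednrb* alone.

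Of 7953 genes tested, 100 were higher and 125 lower in the cells with *Car4* than in those with *Ednrb* alone. Of 11 further aerocyte genes, 6 were higher and 0 lower, against a background of 1.26% and 1.57% (2.83% in either direction), and their median log2 difference was 0.97. In this fit no variation of the spread between genes of like level was estimated, so that its small p-values treat the mice as differing no more than that trend. DESeq2 called 7 genes higher and 19 lower (26.9% higher, against 44.4% in the edgeR fit), and without the mouse as a block 0 passed, with 199 at an unadjusted p under 0.05.

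*Emp2* was at 986 and 263 CPM in cells with *Car4* and 241 and 71.1 CPM in cells with *Ednrb* alone (log2 difference 1.96 ± 0.17, adjusted p = 3.74e-26, edgeR's quasi-likelihood test with Benjamini-Hochberg adjustment). *Pmp22* was at 792 and 818 CPM against 234 and 306 CPM (1.53 ± 0.14, adjusted p = 1.45e-23). *Prx* was at 443 and 508 CPM against 221 and 226 CPM (1.14, adjusted p = 7.85e-10), and *Tbx2* at 208 and 53.3 CPM against 40.1 and 20.4 CPM (1.70, adjusted p = 2.37e-04). These genes were higher in the cells with *Car4* in both mice, as were *Kitl* (0.97, adjusted p = 1.54e-08) and *Kdr* (0.84, adjusted p = 3.45e-05). *Nrp1* did not pass (0.38, adjusted p = 0.0908). Compared with the other endothelial cells, the cells with *Ednrb* alone had log2 differences of 0.41 for *Emp2* (adjusted p = 0.771), 0.94 for *Tbx2* (adjusted p = 0.771), 0.48 for *Prx* (adjusted p = 0.271) and 0.59 for *Pmp22* (adjusted p = 0.0446), only the last of which passed.

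Vein and artery genes went the other way. *Vwf* was at 9.43 and 8.50 CPM in cells with *Car4* and 221 and 120.5 CPM in cells with *Ednrb* alone (log2 difference -3.94 ± 0.39, adjusted p = 9.25e-21). *Nr2f2* was at 47.2 and 92.0 CPM against 421 and 146 CPM (-1.34, adjusted p = 1.42e-06), and *Prss23* at 108 and 193 CPM against 274 and 342 CPM (-0.94, adjusted p = 7.83e-05). Thus 3 of the 4 venous genes tested were lower in the cells with *Car4*, against 1.57% of all genes tested. The median over the 4 was -1.14. *Fbln5*, an elastic fibre gene of arteries, was at 80.2 and 13.1 CPM against 401 and 274 CPM (-3.53, adjusted p = 1.35e-37). In addition, 2 more of the 9 arterial genes tested were lower, *Dkk2*, with no UMI in cells with *Car4*, and *Gja5*, whose direction differed between the mice. Among alternative settings *Vwf* was past the threshold in 6 of 7, *Fbln5* in 6 of 8, *Nr2f2* and *Prss23* in 3 of 9, *Dkk2* in 2 of 3 and *Gja5* in 1 of 4.

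*Fabp4*, a fatty acid binding protein gene, had 0 UMIs among the 212003 UMIs of the cells with *Car4* in Batch 1, which allows up to 14.2 CPM, and stood at 6.18 CPM in Batch 2, against 334 and 281 CPM in the cells with *Ednrb* alone (adjusted p = 1.28e-53). *Cxcl12* was at 241 and 49.5 CPM against 648 and 532 CPM (log2 difference -2.61 ± 0.18, adjusted p = 6.71e-43), and *Ptprb*, a phosphatase of endothelial junctions, was lower by the same test (-1.01, adjusted p = 2.61e-13). *Sema3c* (0.68) and *Cd34* (0.59), also from the general capillary list, were higher. *S100a9* was at 0 and 18.6 CPM in cells with *Car4* and 100.3 and 243 CPM in cells with *Ednrb* alone, and *Igfbp5* at 0 and 17.8 CPM against 154 and 219 CPM.

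Of the 21 transcription factor genes tested, 4 were higher and 1 lower in the cells with *Car4*, including *Tbx3* (log2 difference 1.09) and *Foxf1* (0.69) among the higher. Over all genes tested in this comparison 1.26% were higher and 1.57% lower. *Igfbp7* (1.35), *Hspb1* (1.28), *Cdkn1a* (0.92), *Col4a1* (0.54) and *Col4a2* (0.53) were higher as well. Of 7 cell cycle genes 3 were lower, *Cenpf* (-1.51), *Top2a* (-1.13) and *Mki67* (-2.28), the last with 9.43 and 13.9 CPM against 0 and 82.8 CPM, so that the mice went opposite ways. Of the AT1 genes 2 of 8 were higher (*Clic5*, 1.06, and *Hopx*, 1.54), none of the alveolar type 2 genes passed (0 higher, 0 lower), and 4 erythroid genes were lower, whose direction turned when only cells of 1000 to 3000 UMIs were used. Of 6 lymphatic genes tested, *Ccl21a* was lower and passed in 6 of 8 alternative settings. Of 5 fibroblast genes tested, *Fn1* was lower and passed in 1 of 4. The part of these other markers in the results was not tested. Other genes with large differences were *Pcdha2* (2.44), *Dpp4* (1.85), *Ccdc68* (1.79), *Gnao1* (1.58) and *Slc16a9* (1.50), which were higher, and *Fgl2* (-6.20), *Cpe* (-6.00), *Adamts5* (-4.95), *Hhip* (-4.81) and *Gpr126* (-4.04), which were lower. In the cells with *Car4* these last 5 were at 23.6 CPM or less in each mouse. Fitted differences of genes at or near 0 depend on the prior count.

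**Figure D5:**
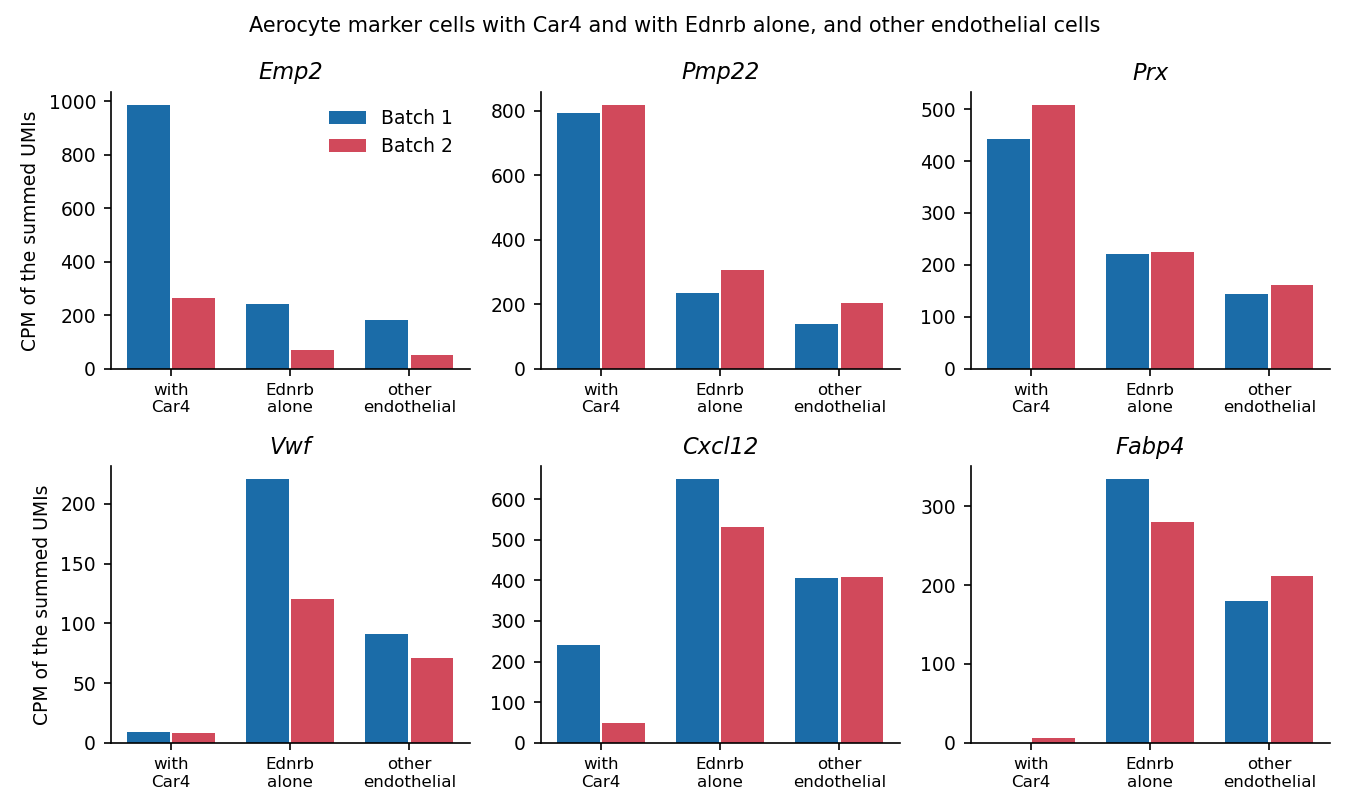
Level in CPM of the summed UMIs (y axis) of 6 genes in aerocyte marker cells with *Car4*, in those with *Ednrb* alone and in other endothelial cells (x axis), 1 bar per batch. *Emp2*, *Pmp22* and *Prx* stood higher with *Car4* in both mice, and *Vwf*, *Cxcl12* and *Fabp4* stood higher with *Ednrb* alone.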

How the data were processed

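Drop-seq libraries of PND1 lung were made in 2 batches, 1 mouse each. To make the deposited UMI counts, the authors aligned reads to mm10 with Bowtie2 2.2.7 (submitters' processing notes), keeping 1 alignment per read, and counted unique UMIs over exons with Drop-seq tools. Reads of paralogs are therefore uncertain. The counts were not normalized and had not been filtered on mitochondrial UMIs, and every deposited cell had at least 500 genes. Filtered libraries held 4432553 and 18232639 UMIs. Counts were summed per class and batch and tested in edgeR 4.0.16 (R 4.3.3, quasi-likelihood test, TMM, filterByExpr, Benjamini-Hochberg adjustment, threshold 0.05) with the mouse as a block. Genes of the endothelial and aerocyte marker rules and mitochondrial genes were not tested, and those of the general capillary rule were left out of the comparison with general capillary marker cells alone. Classes of a mouse paired by design, and their deviations correlated across genes at 0.56, 0.58 and 0.35 in the 3 comparisons. Thinning used 1000 UMIs per cell, and shallower cells were left out. No doublet caller was run, and the limits on *Ptprc*, *Epcam* and *Col1a2* and a limit of 3 times the median UMIs stand in for one. DESeq2 1.42.0, other scalings, filters, rules and depths were alternatives. Cells were handled in Python 3.11.15. On simulated counts of 8522 genes for the first comparison, 73.8% of tested genes changed by 1 log2 unit were found. Of those changed by 2, 100% were found, with 4 wrong calls of 158. Against general capillary marker cells these shares were 72.6% and 99.0%, with 8 wrong calls of 165. Between cells with *Car4* and with *Ednrb* alone they were lower at 1 log2 unit, 38.2% and 98.0%, with 7 wrong calls of 140. The simulation gave all genes of a comparison the same spread and changed only genes above a minimum count, so that these shares may be too favourable. Whether the counts of these 2 mice would give the same shares was not tested. Gene lists, aerocyte marker genes and classes were chosen with earlier results of these data known. The text names at least the 3 genes with the smallest p of each list. Beyond lists, the 10 largest differences each way were taken among called genes with at least 50 CPM and 1 direction in both batches. Of these 10, predicted genes and markers of other cell types were counted but need not be named. The promoter sequences come from RefSeq (GRCm38.p6). P-values come from these 2 mice only, with 1 residual degree of freedom per gene. They rest largely on a spread pooled over genes, and wholly so between cells with *Car4* and with *Ednrb* alone.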

Additional observations from a re-analysis of the deposited data

Results flagged for a closer look

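In Batch 2, endothelial cells above the limit of 10% mitochondrial UMIs, which entered no comparison, also carried the aerocyte markers. Of 401 such cells, 189 met the rule for aerocyte marker cells, or 47.1% (Wilson 95% interval 42.3 to 52.0%). Among the endothelial cells of Batch 2 under the limit the share was 51.6%, and the difference was not tested. Batch 1 held no endothelial cell above the limit (0 cells).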

How the results depend on the processing

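With 2 mice, 1 to a batch, a value without 1 mouse is a difference in the other and has no test. Against other endothelial cells *Emp2*, *Pmp22*, *Prx*, *Tbx2*, *Kitl* and *Klf4* passed in 14 or 15 of 16 settings, the exceptions being the fit without the replicate block and, for all but *Pmp22* and *Klf4*, cells with *Ednrb* alone. Matching on depth kept all 735 other endothelial cells of Batch 2 and so left that batch unmatched. Thinning also dropped shallow cells and chose the aerocyte marker cells anew (60 and 409 cells), and the part of depth in its fewer calls was not tested. For the counts and reversals given next the cause was not tested. Where edgeR passed 0 genes without the replicate block, 116, 75 and 199 genes of the 3 comparisons had an unadjusted p under 0.05. Settings on cells with *Car4* or *Ednrb* alone, of 1000 to 3000 UMIs or with few general capillary UMIs, and the whole comparison of *Car4* with *Ednrb* alone, were chosen after seeing the data.

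Counts of genes higher and lower moved as follows. Against other endothelial cells they were 0 and 0 without the replicate block, 13 and 16 by DESeq2, 123 and 90 with no filter beyond 1 count, 135 and 134 with 3 marker UMIs required, 160 and 162 with 2 of the 4 genes required, 100 and 106 without *Ednrb* in the rule, 100 and 102 with cells matched on depth in Batch 1 alone, 56 and 24 with cells thinned to 1000 UMIs, 117 and 82 without lymphatic marker cells, 125 and 97 with no *Col1a2* UMI allowed, 87 and 86 with a mitochondrial limit of 5%, 111 and 98 for cells with *Car4*, 44 and 31 for cells with *Ednrb* alone, 33 and 8 for cells of 1000 to 3000 UMIs. Against general capillary marker cells they were 0 and 0 without the replicate block, 10 and 5 by DESeq2, 86 and 33 with library size alone, 101 and 26 with no filter beyond 1 count, 106 and 110 with 3 marker UMIs required, 120 and 100 with 2 of the 4 genes required, 158 and 133 without *Ednrb* in the rule, 41 and 19 with cells thinned to 1000 UMIs, 86 and 41 without cells above 3 times the median UMIs, 126 and 107 for cells with *Car4*, 54 and 27 for cells with *Ednrb* alone, 110 and 47 for cells with under 2 general capillary UMIs, 40 and 14 for cells of 1000 to 3000 UMIs. Between aerocyte marker cells with *Car4* and with *Ednrb* alone they were 0 and 0 without the replicate block, 7 and 19 by DESeq2, 63 and 114 with no filter beyond 1 count, 15 and 10 with cells thinned to 1000 UMIs, 10 and 9 for cells of 1000 to 3000 UMIs, 42 and 44 without cells above 3 times the median UMIs, 18 and 40 with no *Col1a2* UMI allowed, 30 and 43 with a mitochondrial limit of 5%.

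Log2 differences that changed sign against other endothelial cells were, with 3 marker UMIs required, *Vwf* 0.090, *Top2a* -0.10, with 2 of the 4 genes required, *S100a9* -1.88, *Nr2f2* -0.49, *Aplnr* -0.21, *Ece1* -0.0070, *Top2a* -0.24, *Tyms* -0.37, *Hsp90b1* -0.0057, without *Ednrb* in the rule, *S100a9* -2.95, *Nr2f2* -0.83, *Aplnr* -0.49, *Ece1* -0.26, *Top2a* -0.62, *Tyms* -0.50, *Hsp90b1* -0.027, with cells matched on depth in Batch 1 alone, *Top2a* -0.018, with cells thinned to 1000 UMIs, *S100a9* -0.76, *Nr2f2* -0.38, *Aplnr* -0.40, *Ece1* -0.23, *Id2* 0.016, *Top2a* -1.30, *Fos* -0.17, *Hspa5* 0.021, *Nckap5* -0.35, without lymphatic marker cells, *Nrp2* 0.021, without cells above 3 times the median UMIs, *Nr2f2* -0.23, *Aplnr* -0.16, *Ece1* -0.12, *Tyms* -0.058, *Nckap5* -0.083, with no *Col1a2* UMI allowed, *Nr2f2* -0.12, *Ece1* -0.017, *Nckap5* -0.0028, with a mitochondrial limit of 5%, *S100a9* -0.16, *Vwf* 0.022, *Nckap5* -0.26, for cells with *Car4*, *S100a9* -1.82, *Nr2f2* -0.56, *Aplnr* -0.15, *Ece1* -0.062, *Top2a* -0.63, *Tyms* -0.79, *Hsp90b1* -0.022, for cells with *Ednrb* alone, *Cxcl12* 0.45, *Prss23* 0.11, *Vwf* 0.89, *Plaur* -0.088, *Id2* 0.10, *Col4a1* -0.098, *Fabp4* 0.51, *Ccnd1* -0.22, *Hspa5* 0.073, *Nckap5* -0.075, *Sept4* -0.19, for cells of 1000 to 3000 UMIs, *S100a9* -0.10, *Nr2f2* -0.42, *Aplnr* -0.20, *Ece1* -0.26, *Ccnd1* -0.23, *Top2a* -0.51, *Fos* -0.014, *Nckap5* -0.35. Against general capillary marker cells they were, with 2 of the 4 genes required, *S100a9* -1.37, without *Ednrb* in the rule, *S100a9* -1.45, with cells thinned to 1000 UMIs, *Nckap5* -0.59, with a mitochondrial limit of 5%, *Nckap5* -0.26, for cells with *Car4*, *S100a9* -1.29, for cells with *Ednrb* alone, *Ptprb* 0.24, *Kdr* -0.13, *Sept4* -0.29, for cells of 1000 to 3000 UMIs, *S100g* 0.0055, *Nckap5* -0.24. Between cells with *Car4* and with *Ednrb* alone they were, with cells thinned to 1000 UMIs, *Epas1* -0.023, for cells of 1000 to 3000 UMIs, *Hbb-bt* 0.41, *Hba-a2* 0.38, *Hba-a1* 0.38, *Hbb-bs* 0.32, *Sema3c* -0.13, without cells above 3 times the median UMIs, *Nckap5* -0.19, *Hbb-bt* 0.73, *Hba-a2* 0.55, *Hba-a1* 0.56, *Hbb-bs* 0.62. Without replicate 1 or 2, *Mki67* ranged from -2.38 to 2.28 and *Gja5* ranged from -3.22 to 0.070 in the last comparison.

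The mean share of aerocyte marker cells was 17.3% with 2 of the 4 genes required and 12.03% without *Ednrb* in the rule. After thinning, the mean difference in the share of cells with the gene, in percentage points between aerocyte marker cells and other endothelial cells, went from 37.9 to 20.8 for *Pmp22*, from 31.9 to 15.0 for *Prx*, from 25.7 to 14.6 for *Kitl*, from 25.8 to 11.6 for *Nrp1*, from 27.0 to 18.1 for *Emp2* and from 16.1 to 7.80 for *Tbx2* (8.29 to 2.79 in Batch 2), and for *Gpihbp1* it turned from 0.21 to -8.65.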

Other observations

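Further listed genes differed between aerocyte marker cells with *Car4* and those with *Ednrb* alone, a comparison chosen after seeing the data. Of the vasoactive genes, *Ace*, which encodes the angiotensin converting enzyme, was at 368 and 429 CPM against 167 and 342 CPM (log2 difference 0.55, adjusted p = 0.0310, edgeR's quasi-likelihood test with Benjamini-Hochberg adjustment), and *Thbd* was also higher (0.41, adjusted p = 0.0380). *Procr*, the endothelial protein C receptor gene, was at 4.72 and 10.1 CPM against 86.9 and 47.0 CPM (-2.53, adjusted p = 1.33e-04). *Epas1*, a transcription factor of the response to hypoxia, was higher at 995 and 1435 CPM against 769 and 1105 CPM (0.39, adjusted p = 0.0443), and *Icam2* was at 0.53 (adjusted p = 0.00483). *Id2*, a target of BMP signalling, was at 151 and 88.9 CPM against 267 and 172 CPM (-0.89, adjusted p = 0.00435). *Fabp5* was at 4.72 and 3.09 CPM against 73.5 and 37.1 CPM (-3.60, adjusted p = 5.36e-06). None of these 7 genes passed without the mouse as a block. *Epas1* and *Thbd* passed in 0 of 9 alternative settings, with lowest adjusted p-values of 0.0611 and 0.0549, *Ace* in 1 of 9, *Icam2* and *Id2* in 2 of 9, *Procr* in 3 of 6 and *Fabp5* in 3 of 5.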
